A study of Mus musculus with 16 samples.

Results

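The mouse cell line 70Z/3 was described on its own from 4 of the 16 samples of the series: 3 RNA-Seq libraries, which the titles number as replicates 1 to 3, and 1 ChIP-Seq sample made with a rabbit antibody to Miz1. They were chosen by the labelled cell line and assay, and no measured value entered the choice. The labels give 70Z/3 as a lymphoblast at the Pre-B stage of development and name no treatment, engineered allele or time point. The line is an established tumour line, so its values describe 1 cell population and not pre-B cells of an animal. The labels do not say that the 3 RNA libraries came from separate cultures, so their spread may be technical, and the ChIP was done once. The 12 other samples of the series, from a thymic line or of histone marks and inputs, were not used here.

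A pre-B cell has rearranged its immunoglobulin heavy chain and shows it at the surface with the surrogate light chain, a pair of invariant proteins from the Igll1 and Vpreb genes, while the light chain genes are still to be joined. The signalling proteins Cd79a and Cd79b carry the signal of this pre-B receptor inward, and the transcription factors Ebf1, Pax5 and the E protein Tcf3 keep the B cell program running. Miz1, the product of Zbtb17, is a zinc finger factor with a BTB domain that activates genes on its own and can repress them in a complex with Myc.

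The libraries held 47.6, 48.9 and 45.5 M counts in 38293 genes. M stands for 1000000, and levels are CPM, the counts of a gene per 1000000 counts in genes of its library. They are not divided by gene length, since no length table was used, so they rank genes by the counts they took and not by RNA molecules. A gene is called on at a mean of 1 CPM or more over the 3 libraries. No pair of libraries held identical values. Libraries 2 and 3 lay closer to each other (chi-square of counts per gene 2.46) than library 1 lay to either (7.49 and 6.05), all above sampling noise, and log2 CPM of on genes correlated across genes at 0.998 to 0.999. Values below are the 3 libraries in the order of their numbers, or the mean ± SD over them (n = 3).

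Of the counted genes, 11117 (29%) were on and 27176 were off. The off genes held 0.103% of all counts, 19877 of them had no count in any library, and 7299 had at least 1. A count of 0 in a library allows a level of up to 0.0614 to 0.0660 CPM (3 counts, counting error only), far under the on threshold. The call was the same in every library for all but 264 genes, with 11003 on in each. Among 20611 protein-coding genes matched to RefSeq, 10122 were on (49.1%), with a median of 47.1 CPM. The last genes inside the threshold were Slc46a1, T2 and Ccdc150 at 1.006 to 1.002 CPM, and the first outside were Clec1b, Amt and Itgb1bp2 at 0.9996 to 0.995 CPM. By level, 2318 genes lay from 1 to under 10 CPM, 6120 from 10 to under 100, 2628 from 100 to under 1000 and 51 at 1000 or more. Of 2330 lncRNA genes 286 were on, and of 4252 pseudogenes 377.

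Among the 20 genes that took the most counts, the mitochondrially encoded oxidase subunit mt-Co1 came first with 7549, 7081 and 7089 CPM, and the elongation factor Eef1a1 followed with 6307, 5927 and 6001 CPM. Both were highest in library 1, and libraries 2 and 3 lay close together. Eef2, the factor that moves the ribosome along, had 4071 ± 128 CPM, the chaperone Hsp90ab1 3478 ± 83.6, the nucleolar protein Ncl 3300.2 ± 129.6 and the poly(A)-binding protein Pabpc1 2162 ± 38.5. The glycolytic enzymes Pkm and Ldha had 2708 ± 113 and 1915 ± 30.7 CPM. The further mitochondrially encoded genes mt-Nd1, mt-Cytb, mt-Nd2 and mt-Nd5 had means from 4462 down to 2493 CPM. Hnrnpa2b1 (an RNA-binding protein of splicing), Rpl4, Rack1, Ptma, Scd2 (a fatty acid desaturase) and Noct, a relative of RNA deadenylases, filled the range from 2449.5 to 1729 CPM. Xist, the RNA that silences an X chromosome in female cells, came next after mt-Nd1 at 4504, 4197 and 4022 CPM. Ighm, the μ heavy chain, was the only gene of the B lineage lists among the first 20, at 1985, 2043 and 1938 CPM.

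The counts were spread over many genes. The first 10 took 4.18 ± 0.0764% of all counts, the first 100 took 14.6 ± 0.109% and the first 1000 took 47.8 ± 0.0978%. The 37 mitochondrially encoded genes together took 2.30 ± 0.0378% and 84 cytosolic ribosomal protein genes 4.79 ± 0.0766%. Reads that align to several places are left out of these shares, so genes with near-identical copies are undercounted in them. Without the mitochondrially encoded genes the first 100 took 13.2%. After Xist, the lncRNAs with the most counts and an established function were Gas5, the host of a set of snoRNAs, at 581 ± 4.42 CPM, the nuclear speckle RNA Malat1 at 349 ± 26.99 and Tug1 at 197 ± 6.36 (these were picked after their values were seen).

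The label of a pre-B line was set beside marker genes. The lists were chosen with earlier results of these data known, so this is not an independent check of the label. All 4 defining markers were on, where 49.1% of matched protein-coding genes were. Ebf1 stood at 323, 286 and 295 CPM, the receptor chain Cd79a at 222, 236 and 230.2 CPM, Vpreb3 at 218, 211 and 215 CPM and Pax5 at 94.3 ± 2.67 CPM. Their sum was 825 to 858 CPM in a library, a narrow range. Of 9 further pre-B markers 7 were on, and the exceptions were Rag1 and Rag2. Of 5 mature B markers 3 were on: the inhibitory receptor Cd22 at 140.5 ± 4.51 CPM, the complement receptor Cr2 at 37.6 ± 1.22 and the survival factor receptor Tnfrsf13c at 19.9 ± 1.41. Ms4a1, which encodes CD20, and Fcer2a had no count in any library. Ighd, also on the mature B list, was not found among the counted genes and could not be assessed. Of 6 plasma cell markers 5 were on, led by Irf4 at 106 ± 2.23 CPM and Mzb1 at 99.4 ± 5.89. Jchain, the joining chain of secreted antibody, stood at 0.0708 CPM and was off.

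Each list of markers of cells outside the B lineage had a smaller share on than the 49.1% of matched protein-coding genes. The largest share was 38.5%, for T cell markers. Of 13 T cell markers 5 were on, with a sum of 218 to 226 CPM. The kinases Lck (92.7, 93.5 and 95.9 CPM) and Zap70 (89.03, 91.99 and 93.8 CPM) and the factor Tcf7 (32.3, 31.5 and 32.96 CPM) made up nearly all of it. The CD3 chains Cd3d and Cd3e stood at 1.04 and 0.196 CPM, and no member of that list was at 0 in every library. Of 9 NK markers 2 were on, with a sum of 23.0 to 24.6 CPM that was mostly Klrd1 at 20.7 ± 0.667 CPM, while Ncr1, Gzmb, Prf1 and Eomes had no count. Of 15 myeloid markers 5 were on, summing to 24.2 to 25.8 CPM and led by the lysozyme gene Lyz2 at 12.2 ± 0.554 CPM. The myeloid genes Csf3r, Cebpa, Ctsg, Cebpe, Adgre1, S100a8 and S100a9 had no count. No erythroid marker of 9 was on (sum 1.31 to 1.47 CPM). Of 10 stromal and endothelial markers, the adhesion molecule Pecam1 (81.9 ± 3.13 CPM) gave nearly all of a sum of 81.7 to 87.8 CPM, Lum was on at 1.37 CPM, and Col3a1 and Dcn were at 0. Whether such RNA comes from the 70Z/3 cells themselves was not tested.

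The surrogate light chain and the signalling chains of the pre-B receptor were all on. Igll1, which encodes λ5, stood at 363, 378 and 363 CPM, and Vpreb1 at 219, 215 and 216 CPM. Both lay in a narrow range in the 3 libraries. Vpreb2, a near copy of Vpreb1, had 8.87 ± 0.381 CPM, and counts of this pair are uncertain because reads that align to several places are kept out of the gene counts. Cd79b had 188 ± 5.32 CPM. Of the 13 receptor and immunoglobulin chains counted, 8 were on (61.5%, against 49.1% of matched protein-coding genes). The κ light chain constant gene Igkc was off at 0.505, 0.777 and 0.792 CPM, as were Ighe and Ighg1, and Igha and the λ constant gene Iglc2 had no count. Ighg2b, a constant gene of switched antibody, was on at 15.9 ± 1.24 CPM (named after its value was seen).

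Genes that join antigen receptor segments were split. The recombinase pair that cuts the segments was low. Rag1 stood at 0.652, 0.859 and 1.08 CPM, off by the mean and above 1 CPM in library 3, and Rag2 at 0.336, 0.348 and 0.242 CPM, off in all 3. The polymerase Dntt, which adds bases at the joints, was on at 13.6, 13.6 and 12.1 CPM. The other 13 genes of the 16, which bend, sense or rejoin DNA, were all on. Over the whole list 87.5% were on, against 49.1% of matched protein-coding genes. Hmgb2, a DNA-bending cofactor of the recombinase, had 471 ± 8.34 CPM, its relative Hmgb1 149 ± 1.67, and the damage kinase Atm 117 ± 3.59.

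Most transcription factors of the B cell list were on, 34 of 41 (82.9%, against 49.1% of matched protein-coding genes). The median was 106 CPM over the list against 0.697 CPM over all matched protein-coding genes. Ikaros (Ikzf1), which directs lymphoid commitment, took the most counts at 995, 993 and 997 CPM. Its SD of 2.08 CPM was the smallest of the first 4 members. Myb, a factor of immature blood cells, followed at 662, 598 and 583 CPM, highest in library 1, and the Wnt-pathway factor Lef1 at 591, 585 and 574 CPM. The coactivator Pou2af1 had 499.99 ± 8.20 CPM. The E proteins Tcf3, Tcf12 and Tcf4 stood at 253 ± 1.03, 237 ± 8.57 and 225 ± 14.1 CPM. Of their inhibitors, the Id family, Id2 had 18.95 ± 1.37 CPM, Id1 and Id3 were off at 0.0986 and 0.464, and Id4 had no count. Foxo1, an activator of the Rag genes in B cell precursors, had 125 ± 2.88 CPM, Bach2 96.3 ± 4.39 and Bcl6 32.5 ± 1.63. Spi1, which encodes PU.1, stood at 41.5, 47.2 and 43.2 CPM and its relative Spib at 1.98, 2.48 and 2.07 CPM. The plasma cell factor Prdm1 had 6.76 ± 1.11 CPM. Runx1 and Runx3 were on at 149.8 and 131 CPM and Runx2 was off at 0.0721. Mef2b had no count, and its relatives Mef2c and Mef2d had 296 ± 10.1 and 342 ± 9.41 CPM. Members named here beyond the 3 highest and those at 0 were chosen after their values were seen.

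**Figure D1:**
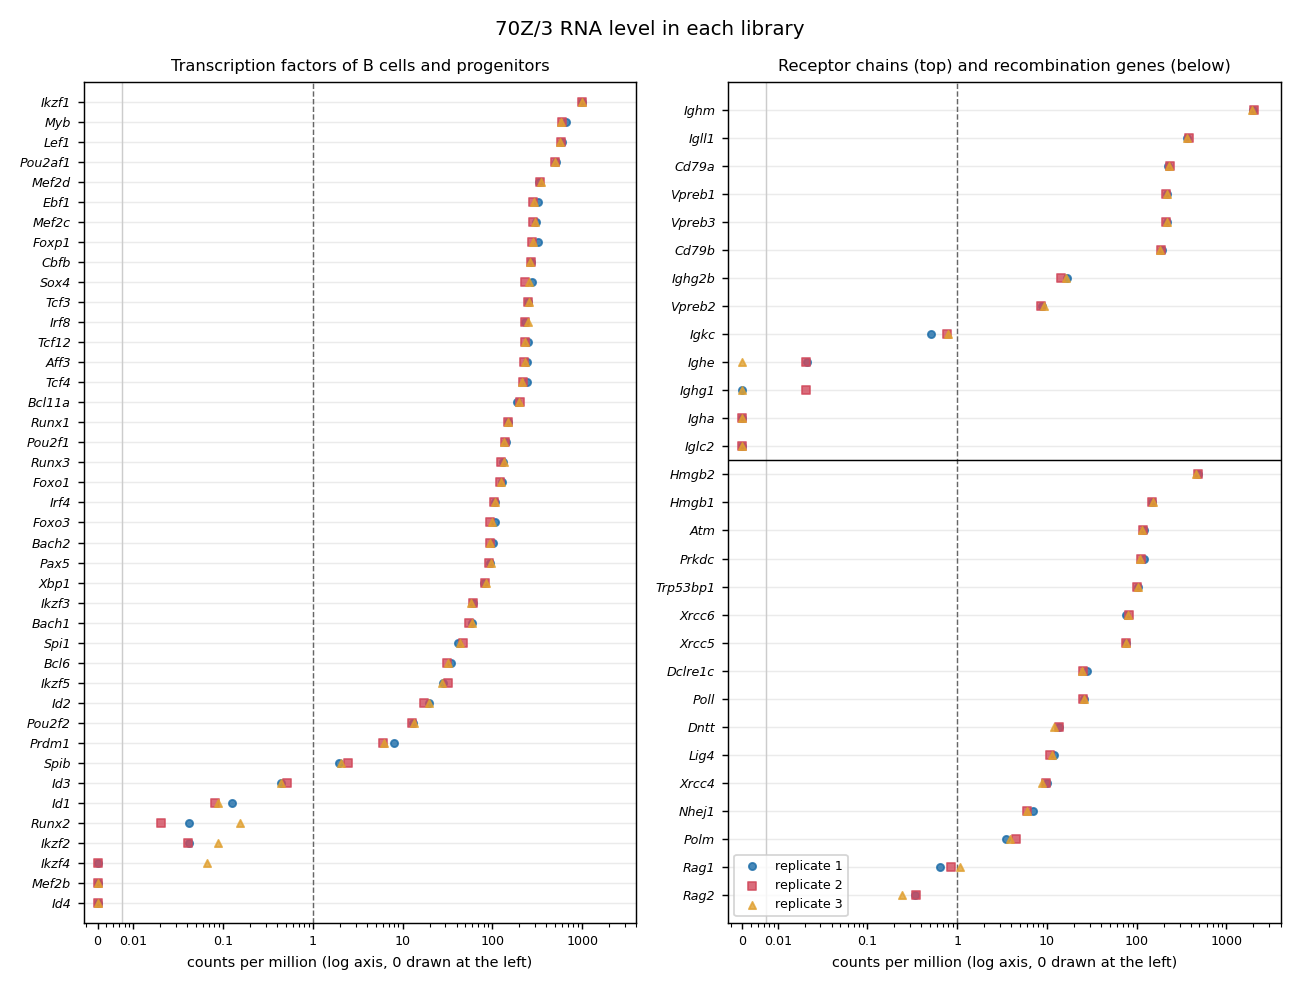
CPM (horizontal, log axis, 0 drawn at the left edge) of 41 transcription factors (left panel) and of 13 receptor chains and 16 recombination genes (right panel) in 70Z/3. Each gene has 1 point per library, and the dashed line is the on threshold of 1 CPM. Rag1 is the gene whose points lie on both sides of the line, and Ikzf1 and Ighm lead their panels.

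Other factor families differed in how many of their members were on. Over all factor lists together, 170 of 302 members were on (56.3%, against 49.1% of matched protein-coding genes). Those lists also hold regulators that are not transcription factors, such as the ubiquitin ligase Huwe1 and the kinases Chuk and Ikbkb, which were on. Of the members, 52 were at 100 CPM or more and 76 had no count. Of 26 Ets factors 16 were on, led by Ets1 at 369.7 ± 26.7, Elf1 at 277 ± 9.81 and Elk4 at 219 ± 7.25 CPM, and Fev, Etv2, Elf5 and Ehf had no count. Among 19 Sox factors, Sox4, a factor needed for early B cells, stood at 274, 232 and 256 CPM. The only other Sox gene on was Sox5 at 2.47 ± 0.247 CPM, and 12 had no count.

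Hox genes were on in 1 stretch of 1 cluster. Of 38 counted Hox genes 6 were on (15.8%, against 49.1% of matched protein-coding genes). They are Hoxb3 to Hoxb8, neighbours in the Hoxb cluster. Hoxb8 had 52.6, 51.6 and 54.2 CPM, Hoxb6 42.1, 42.3 and 42.6 CPM and Hoxb5 28.7, 28.6 and 28.4 CPM. Each lay in a narrow range over the libraries. Hoxb4, Hoxb7 and Hoxb3 had 12.4 ± 0.561, 8.00 ± 0.465 and 7.45 ± 0.589 CPM. Hoxb2, the next gene of the cluster, was off at 0.0998 CPM, Hoxb9 and Hoxb1 had no count, and every counted Hoxa, Hoxc and Hoxd gene was off, 26 Hox genes in all having no count.

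Of 32 factors of progenitors and of other blood lineages 12 were on (37.5%, against 49.1% of matched protein-coding genes). Ldb1, Lyl1 and Hhex led at 146 ± 1.91, 108 ± 6.26 and 92.4 ± 2.89 CPM, and Lmo2, the partner of Ldb1 and Lyl1 in a DNA-binding complex, had 66.7 ± 1.22 CPM. The myeloid factor Cebpa, the blood stem cell factors Gata2 and Mecom and the innate lymphoid factor Zbtb16 had no count. Of the IRF factors, Irf8 stood at 238 ± 8.18, Irf2 at 109 ± 5.35 and Irf4 at 106 ± 2.23 CPM. NF-κB subunits and their regulators were on in 15 of 16 cases, led by Nfkb1 at 190.1 ± 3.95 and the kinases Chuk and Ikbkb at 102 ± 4.31 and 96.2 ± 1.20 CPM. The off member was the IκB relative Bcl3 at 0.0280 CPM. Of 21 KLF and Sp factors 14 were on, led by Sp1, Sp3 and Klf13 at 249 ± 8.74, 189 ± 6.41 and 123 ± 2.79 CPM, and Klf4, Klf5, Klf14, Klf15 and Klf17 had no count. Of 49 nuclear receptors 19 were on, led by Nr2c2 at 209.9 ± 4.40, the glucocorticoid receptor Nr3c1 at 125 ± 4.27 and Rxrb at 73.98 ± 1.69 CPM.

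Miz1 and its partners were on. Zbtb17 itself stood at 40.8, 40.03 and 41.1 CPM, an SD of 0.552 CPM, Myc at 124, 124 and 130.2 CPM and Max, the partner through which Myc binds DNA, at 105, 106 and 109 CPM. Each of these 3 genes lay in a narrow range in the libraries. Of 18 genes of the Myc, Max and Miz1 list 15 were on (83.3%, against 49.1% of matched protein-coding genes). The ubiquitin ligase Huwe1, which acts on Myc and Miz1, led with 897 ± 14.1 CPM, then the cofactors Hcfc1 and Trim28 with 595 ± 19.5 and 536 ± 20.1. Mycn had no count. Among 45 BTB zinc finger genes, the class to which Zbtb17 belongs, 37 were on, led by Zbtb11, Zbtb18 and Zbtb44 at 395 ± 12.5, 358 ± 11.9 and 147 ± 7.53 CPM, and Zbtb7c and Zbtb16 had no count.

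The receptor genes were on at about the share of all protein-coding genes. Of 224 receptor genes 107 were on (47.8%, against 49.1% of matched protein-coding genes), 22 at 100 CPM or more, and 50 had no count. Among 34 B cell surface molecules 26 were on. Cd93, a receptor of early B cells, led with 1043, 929.6 and 927 CPM, highest in library 1. Ptprc, which encodes CD45, had 435 ± 18.5 CPM, Cd24a 333 ± 16.8 and Spn, which encodes CD43, 189.9 ± 1.36. Cd40, the receptor for T cell help, was off at 0.0841, 0 and 0.110 CPM, and Cd86, Ly6d, Ms4a1 and Fcer2a had no count. Genes of MHC class II presentation were on in 5 of 10 cases. H2-Ob, part of an inhibitor of peptide loading, had 90.5, 72.2 and 77.99 CPM and H2-Ab1 32.5, 30.1 and 33.1 CPM. The invariant chain Cd74 was off at 0.547, 0.491 and 0.484 CPM and the class II activator Ciita at 0.210, 0.143 and 0.0879 CPM.

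**Figure D2:**
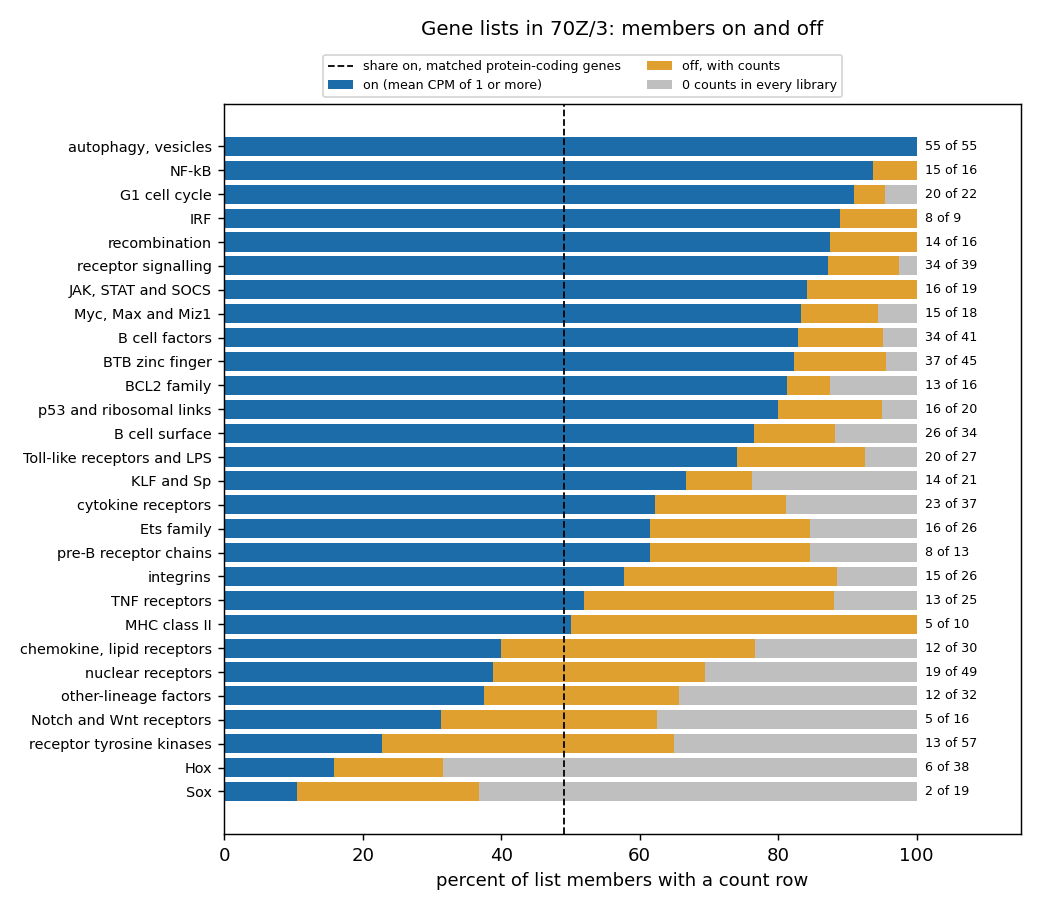
Share of the counted members of each of 28 gene lists (horizontal bars, percent) that were on, off with counts, or at 0 counts in every 70Z/3 library, with the number on at the right. The dashed line is the share on among matched protein-coding genes. Lists run from autophagy and vesicle genes (55 of 55 on) down to Sox genes (2 of 19).

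Of 37 cytokine receptor chains 23 were on (62.2%, against 49.1% of matched protein-coding genes). Il17ra led at 359, 340.1 and 341 CPM. Il7r, which carries the growth signal of early B cells, came next at 184, 152 and 158 CPM, highest in library 1, with its partner chain Il2rg at 37.1, 39.8 and 38.7 CPM. Of the further interleukin 2 receptor chains, Il2ra stood at 10.4, 11.2 and 10.7 CPM and Il2rb was off at 0.273, 0.327 and 0.198 CPM. Il6st, the shared chain of the interleukin 6 family, had 38.4 ± 1.13 CPM and Il6ra had no count. Tgfbr2 had 97.8 ± 1.54 CPM. Chains for other growth factors of blood cells, Csf3r, Epor, Il5ra and Csf2rb2, had no count, nor had Osmr.

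Below these receptors, 16 of 19 JAK, STAT and SOCS genes were on (84.2%, against 49.1% of matched protein-coding genes). Jak1 led with 672 ± 33.6 CPM, Stat6 had 196 ± 1.18 and Stat3 104 ± 2.96. The 3 that were off were feedback inhibitors of cytokine signalling, but other members of the SOCS family were on. Socs4, Socs7, Socs5, Socs6 and Socs2 stood at 91.3, 80.5, 35.8, 32.7 and 19.6 CPM. Of the 3 off genes, each was far below these. Socs1 stood at 0.231, 0.184 and 0.242 CPM, Cish at 0.0277 CPM from 4 counts in all, and Socs3 at 0.00682 CPM from 1 count.

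**Figure D3:**
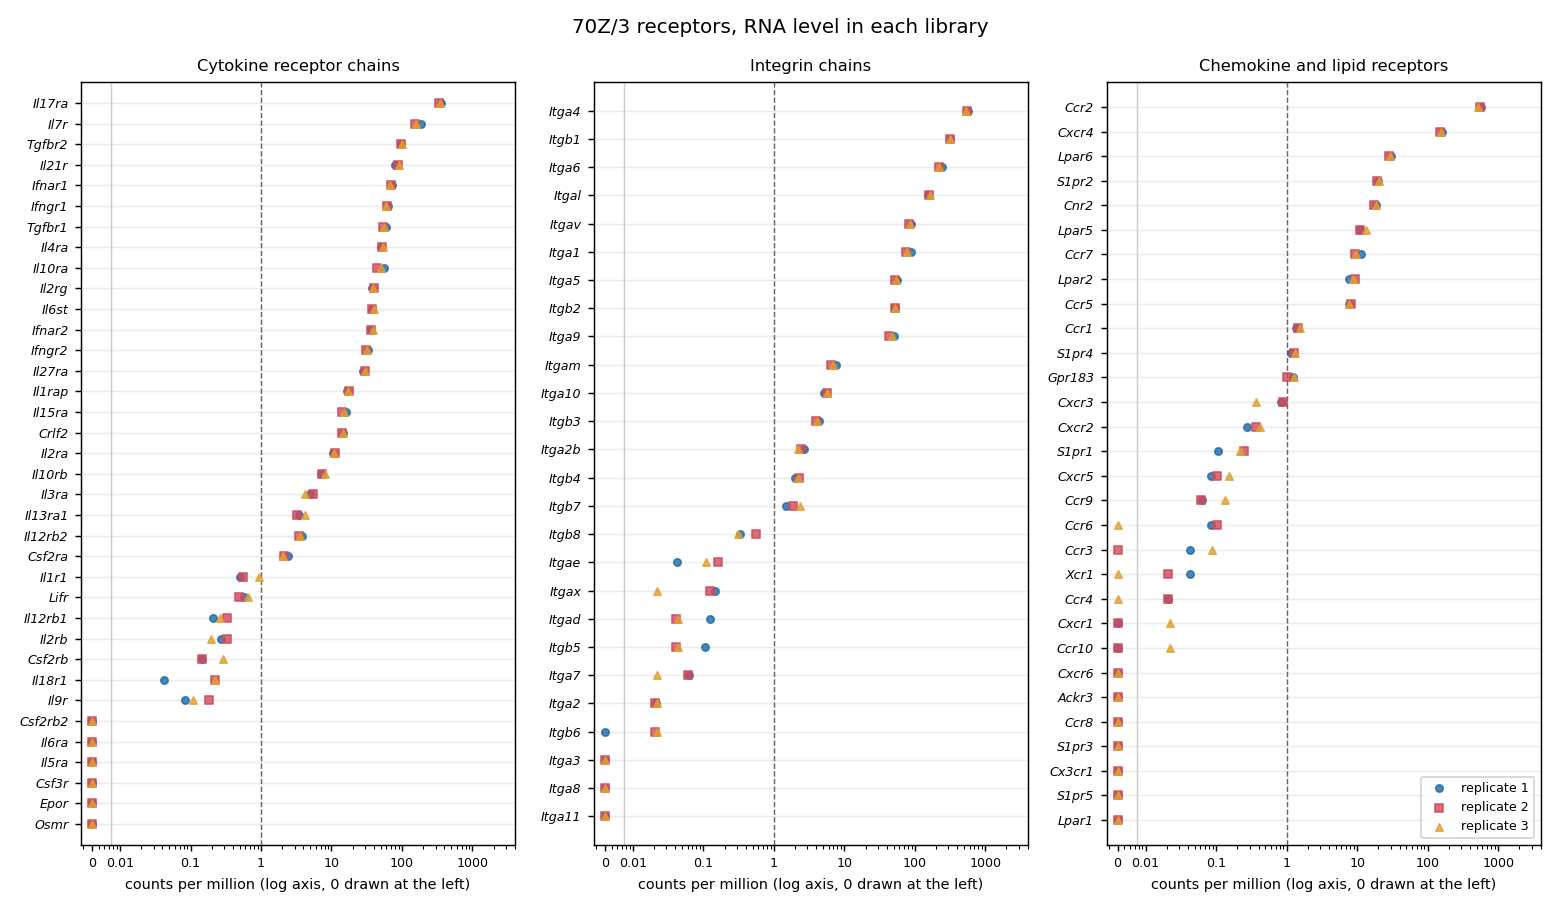
CPM (horizontal, log axis, 0 drawn at the left edge) of cytokine receptor chains, integrin chains and chemokine and lipid receptors in 70Z/3, 1 point per library. The dashed line is 1 CPM. Above it the 3 points of a gene mostly coincide, and below it they spread as counts become few.

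Chemokine and lipid receptors were on in 12 of 30 cases. Ccr2 led at 580.1, 556 and 518 CPM, Cxcr4, which holds B cell precursors in the bone marrow, had 162, 151 and 156 CPM, and Lpar6 had 30.3, 28.2 and 29.7 CPM. Ccr2 was highest in library 1 and the other receptors lay in narrow ranges. Of 26 integrin chains 15 were on (57.7%, against 49.1% of matched protein-coding genes). The chains of VLA-4, Itga4 and Itgb1, had 545 ± 18.8 and 319 ± 1.98 CPM, and Itga6 had 228 ± 10.9, while Itga3, Itga8 and Itga11 had no count. Of 25 TNF receptors 13 were on (52%), close to that share of protein-coding genes. Tnfrsf19 led at 221 ± 5.38 CPM. TACI (Tnfrsf13b), a receptor of B cells for survival factors, had 138 ± 3.78 and Tnfrsf1b 38.9 ± 2.45 CPM. Tnfrsf1a, Ltbr and Edar had no count, so of the pair of receptors for TNF itself only Tnfrsf1b was on. Receptor tyrosine kinases were on in 13 of 57 cases, led by Lmtk2, the insulin receptor Insr and Epha2 at 137 ± 3.20, 79.97 ± 4.60 and 48.96 ± 3.16 CPM. Kit, the stem cell factor receptor, had no count, and Flt3, a receptor of early progenitors, had 2.19, 1.31 and 1.98 CPM. Of 16 Notch and Wnt receptors 5 were on, with Lrp6 at 181 ± 2.18, Notch2 at 56.2 ± 2.42 and Notch1 at 40.7 ± 1.58 CPM.

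70Z/3 has long been used to study the response to bacterial lipopolysaccharide. Its sensor Tlr4 stood at 57.3, 54.2 and 55.4 CPM and Ly96, the protein that holds the lipid beside Tlr4, at 3.45, 3.58 and 3.43 CPM. Cd14, which hands the lipid over, had 0.0210, 0.0409 and 0.0220 CPM from 4 counts in all, and Lbp had no count. The related pair Cd180 and Ly86 had 101 ± 3.79 and 74.7 ± 2.096 CPM. In all 20 of 27 genes of this group were on (74.1%, against 49.1% of matched protein-coding genes). The signalling proteins Irak1 and Traf6 had 109 ± 1.67 and 85.9 ± 2.88 CPM, and Tlr5 had no count.

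Of 39 genes of antigen receptor signalling 34 were on (87.2%, against 49.1% of matched protein-coding genes). The median over this list was 91.6 CPM. The lipid phosphatase Inpp5d led at 973, 942 and 962 CPM, then the phospholipase Plcg2 at 661, 656 and 674 CPM and the tyrosine phosphatase Ptpn6 at 405, 422 and 429 CPM. Of these 3, Inpp5d and Ptpn6 damp the signal and Plcg2 carries it on. The adaptor Blnk had 112 ± 2.59 CPM. Among the kinases, Syk had 119 ± 3.93 CPM beside its T cell relative Zap70 at 91.6 ± 2.42, and Yes1 had no count.

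In the cell cycle list 20 of 22 genes were on (90.9%, against 49.1% of matched protein-coding genes). Cdk4 led with 388 ± 12.99 CPM, and its partners Ccnd1 and Ccnd3 had 275, 296 and 302 CPM and 245, 252 and 272 CPM. Both cyclins were lowest in library 1. The inhibitor Cdkn1c had no count. Of 16 BCL2 family genes 13 were on, with the survival genes Mcl1 and Bcl2 at 183 ± 3.61 and 84.6 ± 0.846 CPM and the pore formers Bak1 and Bax at 94.96 ± 4.66 and 85.3 ± 3.84, and Bik and Hrk had no count. Trp53, the p53 gene, stood at 167, 185 and 184 CPM and its ubiquitin ligase Mdm2 at 85.4, 82.1 and 81.1 CPM. In the list of p53 and its ribosomal protein links, 16 of 20 genes were on. Rpl5, Rpl11 and Rpl26 led with 806 ± 18.7, 564 ± 12.1 and 458 ± 12.96 CPM, and Perp had no count. Rpl22 had 444, 429 and 427 CPM and its paralog Rpl22l1 71.01, 72.6 and 66.2 CPM.

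The libraries of the line differed little from each other. Among 8799 genes at 10 CPM or more, the median coefficient of variation (SD divided by the mean) was 3.21%, 222 genes exceeded 10% and 18 exceeded 15%. The inducible nitric oxide synthase Nos2 varied most, at 13.2, 7.81 and 10.18 CPM (26.0%), then the BTB factor Zbtb20 at 32.2, 23.5 and 21.7 CPM and the p53-induced gene Trp53inp1 at 110.5, 72.01 and 90.7 CPM. All 3 were highest in library 1. The muscle oxidase subunit Cox6a2, the stress-response genes Nupr1 and Ddit3, the Max partner Mxd4, the translation inhibitor Pdcd4 and the collagen Col6a6 followed with variation from 20.4% down to 17.1%, all highest in library 1. Sema7a went the other way at 36.5, 48.8 and 51.1 CPM, lowest in library 1. Of the 100 genes that varied most, 81 were highest in library 1, against 38.9% of all such genes. The cause was not tested. Without library 1 the number of genes on was 11111.

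**Figure D4:**
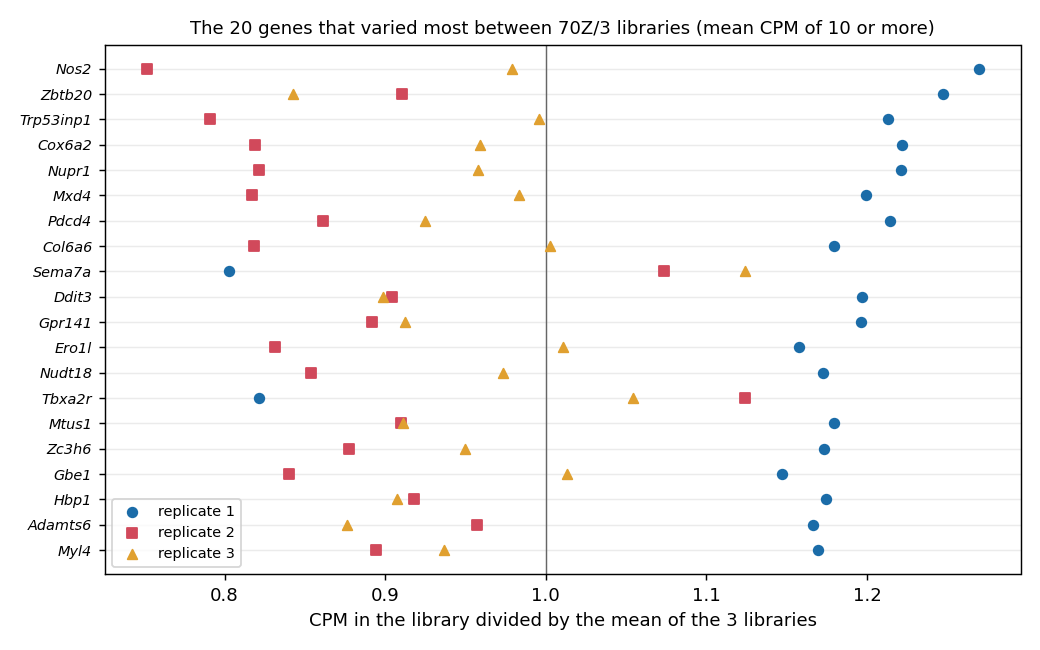
CPM in each library divided by the mean of the 3 libraries (horizontal, linear axis) for the 20 genes of 10 CPM or more with the highest coefficient of variation in 70Z/3. Points for replicate 1 lie at the right for every gene shown except Sema7a and Tbxa2r.

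The Miz1 peak list held 10462 peaks, each with the authors' fold of tag pileup over local background, from 3.31 to 239.5 with a median of 7.28. These scores rank peaks within this list only. Of 30.9 M ChIP tags, 4.48 M (14.5%) remained after the caller kept 1 per position, against 85.5% of the control tags, so the depth behind the list is modest and its weaker peaks rest on pileups as low as 6 tags. A peak was called a gene-end peak where its summit lay within 1 kb of either bound of a protein-coding gene in RefSeq for GRCm38.p6, the build of the list. There were 529 such peaks (5.06%), 2732 summits lay inside genes away from an end (26.1%) and 7201 outside genes (68.8%). The nearest genes inside that window were Inafm2, Galnt4 and Rfx1 with summits 978 to 982 bp from an end, and the nearest outside were Thg1l, Kremen2 and C8g at 1009 to 1018 bp.

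The strongest peaks sat at gene ends and the weak ones mostly did not. A fold of 20 was reached by 200 peaks, a limit chosen after the data were seen, and 99 of them (49.5%) were gene-end peaks, against 4.19% of the peaks under it. Of 95 peaks at a fold of 50 or more, 76.8% were at a gene end, and the median of the 64 summits within 1 kb of a start lay 28 bases before it (middle 50% from 87.5 before to 47 after). Of 4698 peaks under a fold of 7, 5.56% were at a gene end, and the median of the 206 near a start lay 175.5 bases after it. Gene-end peaks marked 585 protein-coding genes (2.84% of those matched), 116 of them (0.563%) with a fold of 20 or more.

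The sequences just before the start of 6 genes with peaks among the strongest are given to show what lies beside these summits: 170 bases up to the base before the start, read 5′ to 3′ on the strand of the gene, from the RefSeq promoter table (GRCm38.p6). Capitals mark ATCGA or GAGCGCCGA on either strand (TCGAT and TCGGCGCTC on the other strand), 2 motifs looked for after these promoters had been read. The positions are chr3:87906151-87906320 (plus strand) for Hdgf, chr1:162570345-162570514 (plus) for Vamp4, chr5:117119959-117120128 (plus) for Taok3, chr13:30974048-30974217 (minus) for Exoc2, chr11:23665884-23666053 (minus) for Pex13 and chr13:113618565-113618734 (minus) for Snx18, all upstream of the annotated start used. The summit lies inside the stretch for each gene but Vamp4, where it is 72 bases after the start.
Hdgf: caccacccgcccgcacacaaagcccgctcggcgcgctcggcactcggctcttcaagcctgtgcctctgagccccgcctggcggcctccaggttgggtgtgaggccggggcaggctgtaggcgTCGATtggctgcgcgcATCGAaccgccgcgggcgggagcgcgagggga
Vamp4: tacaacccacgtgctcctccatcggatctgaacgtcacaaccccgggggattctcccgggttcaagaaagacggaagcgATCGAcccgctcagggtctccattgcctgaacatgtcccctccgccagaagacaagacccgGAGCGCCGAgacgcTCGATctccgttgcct
Taok3: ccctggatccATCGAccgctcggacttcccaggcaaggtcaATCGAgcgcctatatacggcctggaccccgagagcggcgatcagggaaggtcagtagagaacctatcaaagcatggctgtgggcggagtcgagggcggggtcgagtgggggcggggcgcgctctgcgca
Exoc2: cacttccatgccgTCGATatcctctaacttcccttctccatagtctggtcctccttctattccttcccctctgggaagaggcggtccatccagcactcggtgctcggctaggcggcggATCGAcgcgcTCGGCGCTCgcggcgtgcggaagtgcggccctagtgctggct
Pex13: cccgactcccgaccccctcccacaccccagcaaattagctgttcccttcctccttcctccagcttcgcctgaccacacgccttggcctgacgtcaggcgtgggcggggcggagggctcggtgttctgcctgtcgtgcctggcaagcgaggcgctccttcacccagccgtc
Snx18: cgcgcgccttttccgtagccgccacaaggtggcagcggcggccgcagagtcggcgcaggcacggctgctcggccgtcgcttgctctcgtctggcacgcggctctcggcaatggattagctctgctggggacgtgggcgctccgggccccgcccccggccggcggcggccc
The first 4 hold ATCGA at 2 places each, and Vamp4 and Exoc2 also hold GAGCGCCGA at 1. The stretches shown for Pex13 and Snx18 hold neither.

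Over the promoter windows of the table (250 bases before to 50 after a start), ATCGA was present in 51 of 86 windows that held a summit of fold 20 or more (59.3%). It was present in 5 of 126 with a weaker summit (3.97%), in 7.33% of all 32851 windows and in 9.57% of the CpG-rich ones. The longer GAGCGCCGA was present in 13 of the 86 (15.1%), in 3 of the 126 (2.38%) and in 0.332% of all windows (0.875% of the CpG-rich ones). The E-box CACGTG, the letters that Myc with Max can bind, was present in 10 of the 86 (11.6%), 11 of the 126 (8.73%) and 7.15% of all. Among CpG-rich windows the E-box shares were alike: 12.2% with a strong summit, 11.6% with a weaker one and 11.3% of all such windows. Both strands were searched, and where ATCGA and GAGCGCCGA meet they can share up to 2 bases. ATCGA was thus in most windows with a strong summit and in few with a weak one, and the shares for the E-box lay closer together. These are descriptions of letters and carry no test, since the motifs were chosen from the strongest promoters themselves.

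The gene-end peak with the highest fold lay at Hdgf, a growth factor that also binds chromatin. Its summit at 87906210 on chromosome 3 lay 120 bp inside the gene bound, the fold was 239.5 and the pileup 394, and the gene stood at 581, 619 and 615 CPM. Vamp4, a SNARE of the trans-Golgi network, had a fold of 233.8 and 82.2, 72.9 and 74.3 CPM. Taok3, a protein kinase, had a fold of 208.8 and 119, 119 and 122 CPM. All of these were on, within the middle or upper range of on genes. Tonsl, which protects replication forks, had a fold of 208.7 and 44.2 ± 2.19 CPM, and Exoc2, a subunit of the vesicle-tethering exocyst, 201.9 and 96.4 ± 2.96. C2cd5 had a fold of 195.3 and 181 ± 6.52 CPM, and Pex13, which imports proteins into peroxisomes, 185.6 and 41.5 ± 1.54. The peak of fold 185.0 lay between Palb2, the partner of Brca2, at 22.9 ± 1.28 CPM and Dctn5, a dynactin subunit, at 60.6 ± 1.47, whose bounds face each other.

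A strong peak did not always go with RNA. Lrp12, a receptor of the LDL receptor family, had a fold of 238.9, the second highest of the gene-end peaks, and 0.0210, 0 and 0.110 CPM, from 6 counts in all. Snx18, a sorting nexin of endosomes, had a fold of 200.1 and 1 count in the 3 libraries. Of 116 genes with a fold of 20 or more, 7 were off: these 2, Asb15 (0 counts, fold 61.9), Tmem25 and Ttc36 (fold 54.6 at a shared peak), Gm21814 (26.2) and the Ikaros relative Ikzf4 (23.0). The peaks of Asb15 and Ikzf4 also lie within 1 kb of the ends of Ndufa5 (34.6 CPM) and Suox (9.64 CPM), which were on. In all, 71 peaks lay at the ends of 2 or more genes, 17 of them with a fold of 20 or more, and which gene such a peak belongs to cannot be told from these data.

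A larger share of the genes with a Miz1 summit at an end were on than of other protein-coding genes. Of the 585 (2.84% of those matched), 414 were on (70.8%, and 70.8, 70.3 and 70.9% by library), against 9708 of 20026 others (48.5%). Their median was 27.6 CPM against 0.551 CPM. The ratio of these medians is 50.1, and it is set by the other genes' median falling among genes that are off. Among genes that were on, the medians were 52.2 and 47.0 CPM, with middle ranges of 25.2 to 101 and 18.0 to 103 CPM, which overlap nearly whole. Genes are not replicates, and there was 1 ChIP sample, so no p-value is given.

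The share on was larger where the fold of the peak was larger, up to a fold of 20. It was 63.0% of 281 genes under a fold of 7, 65.2% of 135 from 7 to under 10, 75.5% of 53 from 10 to under 20, 93.9% of 33 from 20 to under 50 and 94.0% of 83 at 50 or more. Over the genes with a fold of 20 or more, 109 of 116 were on, with a median of 53.7 CPM (52.7, 53.1 and 53.2 CPM by library). The 469 genes under that fold were on in 305 cases (65.0%), with a median of 20.1 CPM.

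Promoters rich in CpG moved with both measures. Of genes with a start in the promoter table, 89 had a fold of 20 or more, 367 a fold under it and 16113 no gene-end summit. A promoter with an observed over expected CpG ratio of 0.6 or more was found for 89.9%, 70.6% and 52.2% of these. Genes without a start there were left out of these CpG comparisons. Among genes with such promoters, 81.4% of 339 with a summit and 75.4% of 8413 without were on, with medians of 39.9 and 32.1 CPM, a ratio of 1.24. Those under a fold of 20 were on in 76.4% of 259 cases, close to the genes without a summit, and those at 20 or more in 78 of 80 (97.5%), with a median of 56.6 CPM. Among on genes of this class the medians were 57.3 and 54.8 CPM. With CpG-poor promoters, 45.3% of 117 genes with a summit and 20.7% of 7700 without were on.

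**Figure D5:**
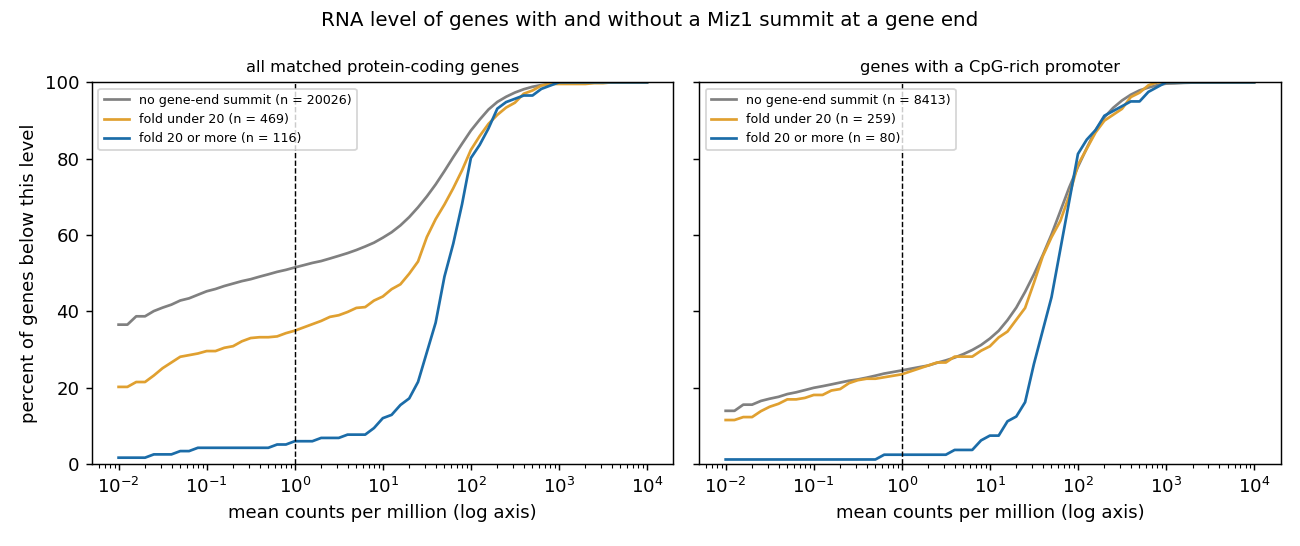
Cumulative share of genes (vertical, percent) below each mean level (horizontal, CPM, log axis) in 70Z/3, for genes with no Miz1 summit at a gene end, with a summit of fold under 20, and of fold 20 or more. The left panel holds all matched protein-coding genes and the right panel those with a CpG-rich promoter. In the right panel the curves without a summit and with fold under 20 nearly coincide, and the curve of fold 20 or more lies lower at 1 CPM (dashed) since 97.5% of its genes are on.

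Of the 10 genes with a summit that took the most counts, 4 had a fold of 20 or more, as did 116 of all 585. Hsp90ab1 (fold 5.46) and Pabpc1 (6.04) took the most counts of the set. Parp1, a sensor of DNA breaks, was the most abundant with a strong peak, at 809, 828 and 839 CPM and a fold of 47.9, followed by the ribosomal protein gene Rpl9 at 695, 669 and 659 CPM and 54.9, Hdgf, and the chaperonin subunit Cct8 at 564, 622 and 607 CPM and 103.7. The weaker ones were Tmsb4x, Myh9, Arpc1b and Ddx21, with folds from 7.28 to 9.70 and means from 681 to 578 CPM.

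Few genes of the B lineage lists carried a summit, as did few genes at large (2.84%). Of 41 B cell transcription factors 3 did, Ikzf2, Ikzf4 and Mef2b, none of which was on. Cd79a had a summit of fold 10.9 at 804 bp beyond a gene bound, the only one among the 6 receptor chains matched to RefSeq as protein-coding. The immunoglobulin constant genes were not among these, so no summit was looked for at them. Of 37 cytokine receptor chains 3 had a weak summit (Il15ra, Ifnar2 and Tgfbr1), and of the JAK, STAT and SOCS genes Stat6 (fold 6.57, on) and Cish (5.46, off). Neither Zbtb17, Myc nor Trp53 had one, and no member of the BTB zinc finger, NF-κB, IRF, BCL2, recombination or p53 lists had one. In the Myc, Max and Miz1 list Nacc1, itself a BTB protein, had a fold of 78.8 at 166 ± 6.42 CPM and Mxd3 one of 5.46. Autophagy and vesicle genes had 5 of 55, Vamp4, Exoc2 and Ambra1 with folds over 20 and Uvrag and Atg10 with weak ones, and all 55 of that list were on, led by Rab7, Vps4b and Atg2b at 302 ± 5.27, 188 ± 4.31 and 173 ± 3.42 CPM. Of all matched genes, 49.1% were on and 0.563% had a summit of fold 20 or more. The members of that list were chosen with peaks of this series known, so its count is not independent evidence.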

How the data were processed

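The 3 RNA-Seq libraries and the Miz1 ChIP-Seq sample of 70Z/3 were assigned by their titles and cell line labels. The RNA files hold deposited raw counts, whole numbers per Ensembl gene. HTSeq, bedtools, SAMtools, Bowtie2 2.10 and TopHat2 2.0.10 are named in the submitters' processing notes, as are the builds GRCm38 and mm10. The library kit keeps strand, per the labels' protocols, but no source used here gives the strand setting of the counting, so antisense and overlapping genes can share counts. The 5 summary lines of each file name no gene and were dropped. Reads outside genes were 14.5 to 14.9% and ambiguous ones 0.382 to 0.386% of uniquely aligned reads, and for each gene count there were 1.41 to 1.44 alignments to several places, so near-identical genes are undercounted. Symbols were found for 36345 genes, and 20232 protein-coding genes were matched to RefSeq by symbol and 379 by synonym, of 21887.

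Per the file headers, MACS 2.0.10.20120913 called the peaks at a q-value of 0.01 with 1 tag kept per position. Per the file headers it gives a pileup of tags at the summit (a signal), a fold ratio over the background nearby, and the −log10 of the p-value and of the q-value. The authors' fold was used to rank peaks. The control is named by number in the header. The depositors typed remarks beside 11 peaks, not used here.

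CPM, counts and medians were computed with Python 3.11.15 and pandas 2.3.3 and drawn with matplotlib 3.10.9. Scaling alternatives used edgeR 4.0.16 and DESeq2 1.42.0 in R 4.3.3, size factors only. The computations were tested on simulated data. No test was run, since there is 1 group. The rule for named genes took the 20 highest genes, the 3 highest members of each list by CPM and those at 0 where there were 5 or fewer, members said to be lacking, the 10 most variable genes, the 10 strongest gene-end peaks, the 10 most abundant and 5 strongest off genes with a summit, and Zbtb17, Myc, Trp53, Rpl22, Rpl22l1, Il7r, Socs1, Bcl2, Rag1, Rag2 and Dntt. A few genes that the rule takes are not reported here. Genes named outside this rule were chosen after their values were seen, as were the fold of 20 and the motifs. The members and lists were chosen with earlier results of these data known.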

Additional observations from a re-analysis of the deposited data

How the results depend on the processing

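The number of genes on (11117) stayed within 1.5 times under every alternative run: 11117 with TMM or DESeq2 scaling, 11111 to 11129 with 1 library left out, 11800 and 10523 at thresholds of 0.5 and 2 CPM, 11003 with 1 CPM required in each library and 15070 with 1 count in each. The share of counts in the first 100 genes was 14.5 to 14.7% with 1 library left out and 13.2% without mitochondrially encoded genes. The 529 gene-end peaks became 390 within 500 bp, 718 within 2 kb, 438 at a −log10 q of 5 or more and 427 at starts only.

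The share of Miz1 gene-end genes that were on (70.8%) was 70.8 to 70.9% with 1 library left out. It moved to 75% within 500 bp, 66.2% within 2 kb, 73.7% at starts only, 73.1% at a −log10 q of 5 or more, 77.9% at a fold at or above the median, 72.5% and 68.5% at thresholds of 0.5 and 2 CPM and 81.4% with CpG-rich promoters. With a fold of 20 or more it was 94.0%, and 97.5% with CpG-rich promoters as well. These 2 settings were added after seeing the data.

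The ratio of medians (50.1) was 50.9 to 51.3 with 1 library left out and, in the same order of peak settings, 56.9, 39.5, 44.96, 54.1 and 64.4. It was 1.24 with CpG-rich promoters, 1.28 over genes with a count in each library, 84.7 with a fold of 20 or more and 1.76 with both that fold and CpG-rich promoters. With CpG-rich promoters the median of the other genes is 32.1 CPM, so both medians are of genes that are on. Scaling did not move either measure.

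No paired analysis was possible because there is 1 group and no test. The alternative of CPM per kb was not run, since no length table was used. Depth limits the off genes, where a library cannot tell levels under 0.0614 to 0.0660 CPM from 0, and the weak peaks, since 4.48 M ChIP tags were kept. Intervals for counting error do not cover differences between cultures.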

Other observations

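Gene families with strong Miz1 peaks were looked at after the values were seen, and they are given as values only. Of all matched protein-coding genes 2.84% had a gene-end summit and 0.563% one of fold 20 or more. Of the peroxin genes, which build peroxisomes, Pex13 (fold 185.6), Pex14 (100.1) and Pex16 (69.8) had a gene-end summit with a fold over 20. They stood at 41.5 ± 1.54, 25.04 ± 0.458 and 13.1 ± 0.318 CPM (SD, n = 3). Of 50 proteasome genes 7 had a summit, 3 of them strong: Psma1 (123.7), Psmd3 (94.8) and the assembly factor Psmg4 (86.1), at 188 ± 6.32, 196 ± 11.99 and 16.2 ± 1.06 CPM. Of 34 Vps genes of vesicle sorting 3 had a summit, with folds of 124.3 at Vps13d and 112.3 at Vps72, the latter a chromatin protein despite its name. Of 74 ribosomal protein genes, all on, only Rpl9 had a summit, and its peak also lies at the end of Lias (54.9 CPM). Of 77 mitochondrial ribosomal protein genes 2 had one, Mrps15 (133.8) and Mrpl45 (19.1).

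Other strong peaks lay within 1 kb of the ends of both Aurka, a mitotic kinase, and Cstf1 (fold 100.7, 95.16 and 73.5 CPM) and of both S100pbp and Yars (132.2, 92.1 and 224.8 CPM).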
